A study of Drosophila melanogaster with 13 samples.

Results

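Ribosome immunoprecipitations (IPs) were compared with a control IP in Drosophila melanogaster males, all labelled as secondary cells of the accessory gland. They make up 4 of the 13 libraries of a series whose other 9 are RNA-seq libraries of sorted secondary cells. The 4 libraries were taken by their labels: 3 ribosome IPs and 1 control. All genes with enough counts entered the comparison, which was 12723 of the 16727 in the table.

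The ribosome IPs came from males of the genotype UAS GFP-RPL10Ab, D1:GAL4, in which the driver switches on RPL10Ab, a protein of the large ribosomal subunit, fused to GFP. The control came from males of the genotype UAS GFP, D1:GAL4, in which the same driver switches on GFP with no ribosomal protein. Both groups therefore carried D1:GAL4, both were precipitated with an anti-GFP antibody, and all males were aged 5 to 11 days. The submitters describe the replicates as biological. Libraries were made from 2 ng of RNA, primed on the poly(A) tail, amplified with the SMARTer method and sequenced as single reads of 100 nucleotides with no information on strand. The labels describe protease treatment and sorting for the RNA-seq samples, and do not say what tissue was lysed for the IPs or in which other cells D1:GAL4 is active. The ribosome IPs and the control differ in the transgene line as well as in the tagged protein, and these cannot be told apart.

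In translating ribosome affinity purification (TRAP), a tag on a ribosomal protein lets an antibody pull down the ribosomes of the cells that make it, with the mRNAs those ribosomes carry. RNA that clings to beads, antibody or tube comes along, and an IP of plain GFP measures it. Secondary cells are large, vacuole-filled epithelial cells at the tips of the accessory gland, outnumbered by main cells. They depend on the Hox gene Abd-B and secrete proteins that lengthen the response of females to mating.

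In units of 1e6 counted reads, the ribosome IPs held 11.2, 21.4 and 17.4 and the control 3.70. At a level of 1 CPM (counts per 1000000 counted reads), 11216, 11331 and 11445 genes were present in the ribosome IPs and 11305 in the control, which lies within the range of the ribosome IPs. Thinned to the total of the control, the ribosome IPs would hold 12751, 12990 and 13042 genes with a count, against 12406 in the control. The 10 most abundant genes took 23.2, 25.9 and 23.7% of the counts of the ribosome IPs, and 6.60% of those of the control. Levels below are normalised CPM, which are scaled by the trimmed mean of M-values (TMM). Across genes the ribosome IPs ranked alike, with Spearman coefficients between libraries of 0.950 to 0.973, and each ranked less like the control, at 0.892 to 0.922.

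The secondary cell transcripts CG9029, CG17575, lectin-46Ca and CG13965, the iab-8 unit of the Bithorax complex and 7 of 35 glutathione S-transferases were higher in the ribosome IPs. So were some genes that sorted secondary cells hardly contain, among them the 3 scpr genes, Obp99a, Obp44a and sad. The ejaculatory duct genes Est-6 and Gld, a pair of serpins and the lipase-like CG5162 were lower. By edgeR's quasi-likelihood test at an adjusted p of 0.05, 414 of the 12723 genes were higher in the ribosome IPs, or 3.25%, and 34 were lower, or 0.267%. Together these were 3.52% of the genes tested. All 3 ribosome IPs lay above the control for every one of the 414 genes and below it for every one of the 34. Over all genes tested, all 3 lay above it for 37.7% and below it for 31.0%. The calls came from the same 4 libraries, so this agreement is not separate evidence for them. The median log2 fold change of the 414 was 2.79, and 329 of them differed more than 4-fold, as did 21 of the 34. At an unadjusted p of 0.05, 1897 genes were higher and 668 lower.

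These calls rest on 1 control library, which the fit assumed to vary like the ribosome IPs (common biological coefficient of variation 0.373). Without ribosome IP 3, 1 gene passed as higher and 0 as lower (1890 genes at an unadjusted p of 0.05). Scaled to library totals in place of TMM, the median log2 fold change of all genes was -0.27 in place of 0.11, and the calls split into 221 higher and 114 lower. All 414 and all 34 genes kept their sign under that scaling, and 221 and 34 of them their call. For genes named below, a call lost with library totals or in a fit of all 13 libraries is given where they are described, and every call but that of CG32557 was lost without ribosome IP 3.

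**Figure D1:**
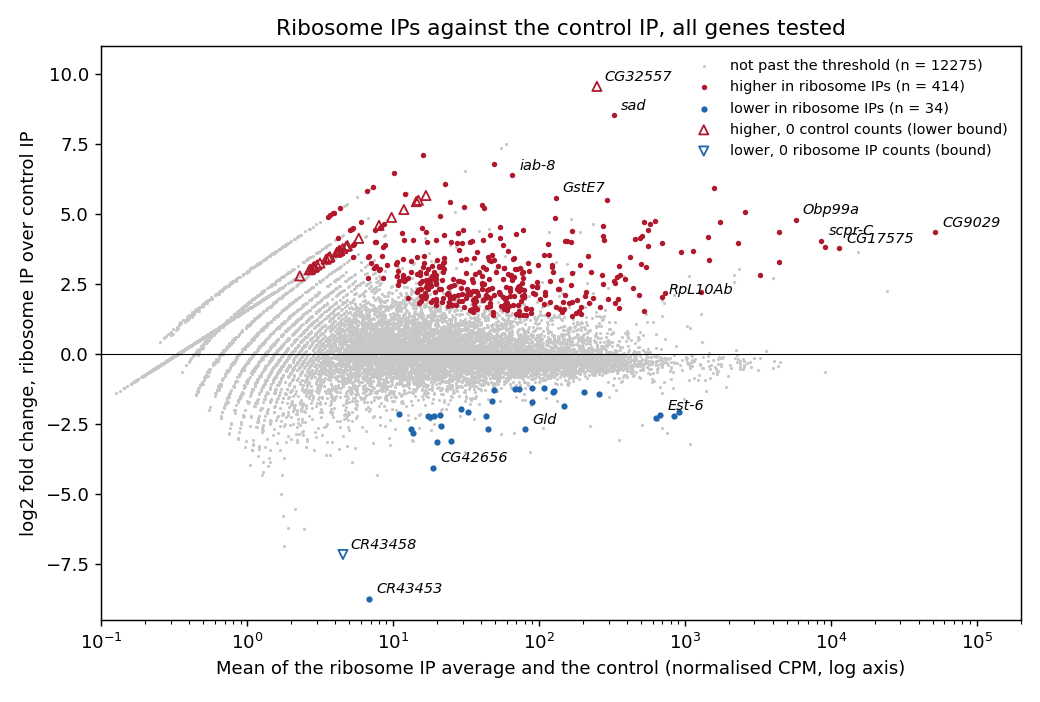
Each point is 1 of the 12723 genes tested, plotted by its level (mean of the ribosome IP average and the control, normalised CPM, log axis) against its log2 fold change, ribosome IP over control. Red points are the 414 genes higher and blue points the 34 lower at an adjusted p of 0.05, triangles are called genes with 0 counts on one side, drawn at a bound set by 3 counts, and grey points did not pass. CG9029 is the most abundant gene called higher.

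RpL10Ab, the gene whose tagged copy served as bait, stood at 629, 1051 and 1619 normalised CPM in the ribosome IPs, against 285 in the control. Every ribosome IP lay above the control, but they spread widely among themselves and the difference did not pass the test (log2 fold change 1.95 ± 0.55, SE; adjusted p = 0.108). Reads of the transgene and of the endogenous gene were not separated.

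The most abundant mRNA of the ribosome IPs was CG9029, a gene of unknown function that is also the most abundant in sorted secondary cells. It stood at 86608, 120764 and 89787 normalised CPM in the ribosome IPs, against 4852 in the control. All 3 ribosome IPs lay far above the control, and it was higher by a log2 fold change of 4.35 ± 0.53 (SE; adjusted p = 0.0216; mean 99053 ± 18869 in the ribosome IPs, SD, n = 3). CG43185, a coding gene that neighbours it on chromosome arm 2L and was chosen after its values were seen, stood at 595, 1125 and 869 normalised CPM in the ribosome IPs, against 49.7 in the control (log2 fold change 4.12 ± 0.49; adjusted p = 0.0216, and 0.129 in the fit of 13 libraries).

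CG17575, lectin-46Ca and lectin-46Cb encode proteins that keep Sex Peptide on stored sperm in the mated female. The cysteine-rich secretory protein gene CG17575 stood at 10456, 27062 and 26201 normalised CPM in the ribosome IPs, against 1543 in the control. Ribosome IP 1 was the lowest of the 3 and still several times the control, and the gene was higher (log2 fold change 3.78 ± 0.70; adjusted p = 0.0378). Its partner lectin-46Ca stood at 8864, 23626 and 18873 normalised CPM in the ribosome IPs, against 1220.1 in the control and was also higher (log2 fold change 3.81 ± 0.68; adjusted p = 0.0356). The neighbouring lectin-46Cb also lay above the control in all 3 ribosome IPs, at 2915, 8975 and 9044 normalised CPM in the ribosome IPs, against 1067 in the control, but did not pass (log2 fold change 2.71 ± 0.72; adjusted p = 0.0945).

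Acp32CD, an accessory gland protein gene, had a higher mean in the ribosome IPs than CG17575 but missed the threshold. It stood at 7857, 38301 and 39498 normalised CPM in the ribosome IPs, against 2262 in the control (log2 fold change 3.66 ± 1.01; adjusted p = 0.103). Ribosome IP 1 lay well below the other 2 for this gene as for the lectins. CG13965, another abundant transcript of sorted secondary cells, was higher, at 2568, 5004 and 5433 normalised CPM in the ribosome IPs, against 278 in the control (log2 fold change 3.96 ± 0.58; adjusted p = 0.0237). The secreted adhesion protein mfas stood at 886, 1707 and 1518 normalised CPM in the ribosome IPs, against 317 in the control, just outside the threshold (log2 fold change 2.11 ± 0.45; adjusted p = 0.0548).

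Among the 10 most abundant genes of the wild-type sorted cells, the chaperone Hsp83 and the capsid-forming Arc1 showed the smallest differences. Hsp83 stood at 732, 594 and 720.0 normalised CPM in the ribosome IPs, against 591 in the control (adjusted p = 0.706) with the control just below the lowest ribosome IP. Arc1 stood at 1443, 1301 and 1387 normalised CPM in the ribosome IPs, against 688 in the control (adjusted p = 0.106).

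The list of secondary cell genes held 9 members, all tested, of which 4 were higher (CG9029, CG17575, lectin-46Ca and iab-8) and 0 lower, against 3.25% and 0.267% of all genes. All 9 had a positive log2 fold change, 8 lay above the control in all 3 ribosome IPs, and their median was 3.78, against 0.11 over all genes tested. The list took 9.56, 16.8 and 14.4% of the counts of the ribosome IPs and 1.07% of the control, against a mean of 57.8% in wild-type sorted cells. It was drawn up with results of these data known, so its direction is not independent evidence. In bulk libraries such as these, fewer cells of a type and less RNA per cell cannot be told apart. The calls of CG9029, CG17575, lectin-46Ca and CG13965 were lost without ribosome IP 3 (adjusted p = 0.0510 to 0.0767), and that of CG9029 in a fit of all 13 libraries (adjusted p = 0.0640).

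Regulators of the secondary cell fate stood at lower levels. The iab-8 unit of the Bithorax complex, annotated as non-coding and known to encode the micropeptide MSAmiP, lies on 3R from 16831116 to 16923231 (dm6). It stood at 80.0, 138 and 170.0 normalised CPM in the ribosome IPs, against 1.55 in the control, the control value being 7 counts. No ribosome IP came near the control, and iab-8 was higher by a log2 fold change of 6.38 ± 0.69 (SE; adjusted p = 0.0216). Without strand information its reads cannot be told apart from those of iab-4 on the opposite strand, which itself had too few counts to be tested.

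The Hox gene abd-A stood at 14.5, 13.1 and 14.8 normalised CPM in the ribosome IPs, against 3.31 in the control. The 3 ribosome IPs were close together and all above the control, but the control value rests on 15 counts and the difference did not pass (log2 fold change 2.09 ± 0.47; adjusted p = 0.0624). Abd-B, the Hox gene that secondary cells need, stood at 2.14, 7.13 and 8.65 normalised CPM in the ribosome IPs, against 4.86 in the control, with the control between the ribosome IPs (adjusted p = 0.867). Ubx ran the other way at 16.1, 5.22 and 4.30 normalised CPM in the ribosome IPs, against 33.8 in the control, with all 3 ribosome IPs below the control (ratio of their mean to the control 0.253; adjusted p = 0.165).

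Ubx averaged 2011 CPM in wild-type sorted cells, more than abd-A (196 CPM), Abd-B (106 CPM) or iab-8 (839.5 CPM), so its order among the sorted cells was not that of the ribosome IPs. The sugar transporter gene Glut3 and the non-coding bxd had log2 fold changes of -0.03 ± 0.48 and -0.08 ± 1.44 and did not pass (adjusted p = 0.976 and 0.982). In all, 1 of 6 tested Bithorax genes was higher (16.7%, against 3.25% of all genes) and 0 lower.

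Genes dve, Rab19 and CG13822 were chosen after their values were seen. The homeobox gene dve, which secondary cells also require, stood at 29.3, 132 and 60.9 normalised CPM in the ribosome IPs, against 3.53 in the control. Its 3 ribosome IPs lay above the control but differed widely among themselves, and it did not pass (log2 fold change 4.39 ± 1.01; adjusted p = 0.0664). Rab19, a membrane traffic GTPase also on the list of secondary cell genes, stood at 57.6, 124 and 145 normalised CPM in the ribosome IPs, against 51.4 in the control (adjusted p = 0.297). CG13822, which sorted cells hold at 799.7 CPM, was higher, at 61.3, 109.7 and 148 normalised CPM in the ribosome IPs, against 7.07 in the control (log2 fold change 3.91 ± 0.62; adjusted p = 0.0272).

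The BMP ligand gbb was higher and nearly the same in the 3 ribosome IPs, at 62.9, 64.7 and 68.6 normalised CPM in the ribosome IPs, against 17.0 in the control (log2 fold change 1.94 ± 0.31; adjusted p = 0.0272). It was the only one called of 13 tested genes of BMP signalling (7.69% higher, against 3.25% of all genes), whose median log2 fold change was 0.09. BMP signalling is known to regulate secondary cell growth and secretion. The call of gbb was lost with library totals (adjusted p = 0.0568), and those of iab-8, gbb and CG13822 without ribosome IP 3 (adjusted p = 0.0510 to 0.0766).

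**Figure D2:**
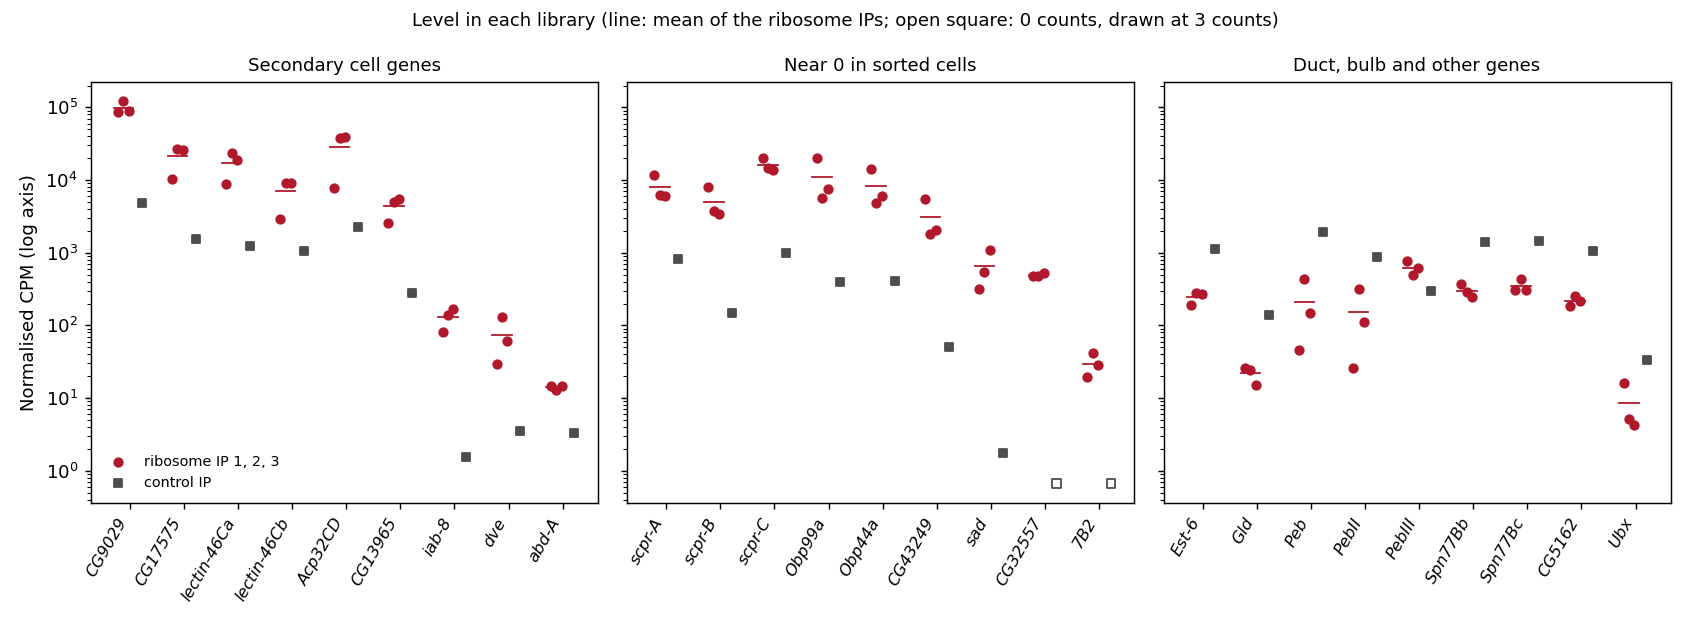
Level of 27 genes in each library (normalised CPM, log axis); red points are ribosome IPs 1, 2 and 3 with a line at their mean, and grey squares to the right are the control, open and drawn at 3 counts where it had 0. The secondary cell genes drawn in the left panel, such as iab-8, at 80.0, 138 and 170.0 in the ribosome IPs and 1.55 in the control, lie above the control. Est-6, Gld and the serpins lie below it, as does the Hox gene Ubx, drawn in the right panel. Abd-B is not drawn, and its control (4.86) lies between its ribosome IPs (2.14, 7.13 and 8.65).

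The share of genes called higher grew with the level in sorted secondary cells. Of 28 genes above 1000 CPM in the wild-type sorted libraries, 8 were higher (28.6%), with a median log2 fold change of 1.76. Of 413 genes between 100 and 1000 CPM, 44 were higher (10.7%), and of 3169 between 10 and 100 CPM, 160 (5.05%). In these 3 classes together, 1 gene was lower.

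Below 10 CPM the shares were 2.35% of 3019 genes above 1 CPM, 2.48% of 4468 genes above 0 and up to 1 CPM, and 1.23% of 1626 genes with no count in sorted cells. Of the 414 genes higher, 212 (51.2%) stood at 10 CPM or more in sorted cells and 131 (31.6%) under 1 CPM. Of the 34 lower, 26 stood under 1 CPM. By mean level in the 4 IP libraries themselves, 0.896% of genes from 1 to 10 CPM, 4.76% from 10 to 100 CPM and 6.17% above that were called higher, and the part of this in the shares by sorted-cell level was not tested.

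Short genes were called more often than long ones, in both directions. Among coding genes split into 4 equal classes by exonic length, the share called higher was 4.96% in the shortest class (152 to 1127 nucleotides) and 4.15, 3.43 and 1.33% in the next 3. The share called lower was 0.419, 0.384, 0.175 and 0.105% in the same order. The median exonic length was 1416 nucleotides for coding genes higher, 1440 for those lower and 1883 for those not called. Coding genes were called higher in 3.47% of 11457 cases and genes annotated as non-coding RNA in 1.28% of 1174. Ribosome IP and sorted-cell libraries used the same priming on the poly(A) tail, and no length correction was made.

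**Figure D3:**
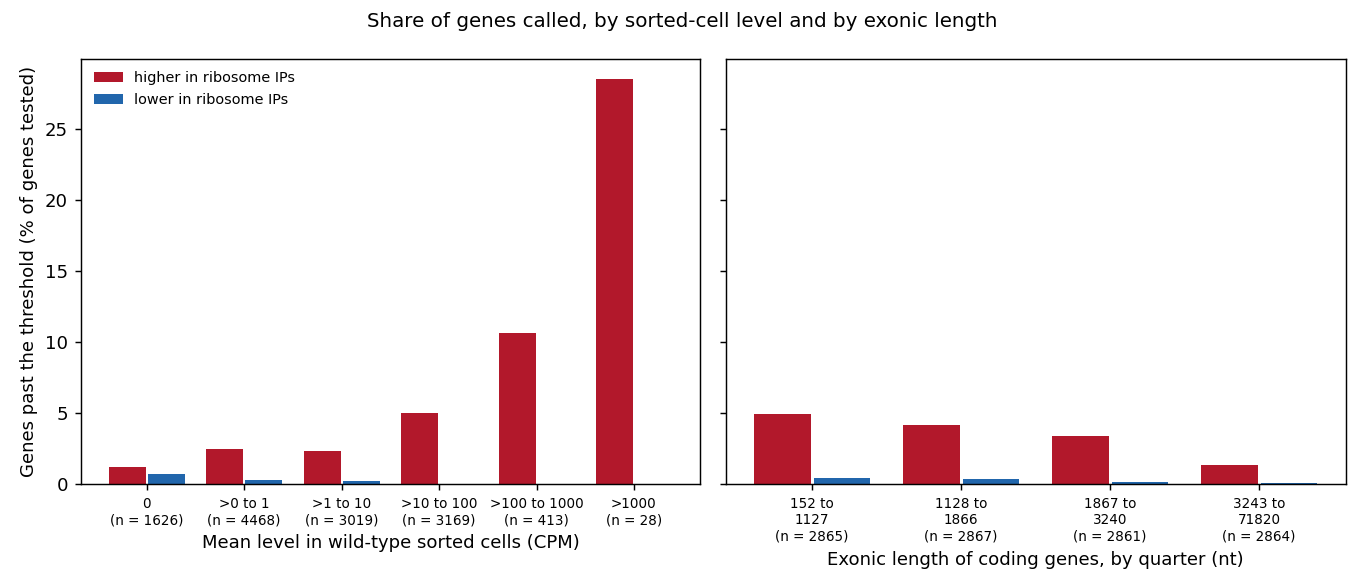
Share of genes called higher (red, left bar) or lower (blue, right bar) in the ribosome IPs, as a percentage of genes tested, in classes of mean level in wild-type sorted cells (left panel, CPM) and in 4 equal classes of exonic length of coding genes (right panel, nucleotides). The share called higher was 28.6% above 1000 CPM and 1.23% among genes with no count in sorted cells, and 4.96% in the shortest class of genes against 1.33% in the longest.

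A second group of genes was abundant in the ribosome IPs, higher than in the control, and near 0 in sorted secondary cells. The 3 scpr genes, which encode secreted proteins of the CAP family, were all higher. scpr-C stood at 20212, 14544 and 13917 normalised CPM in the ribosome IPs, against 984 in the control, and at 2.89 CPM in sorted cells (log2 fold change 4.04 ± 0.47; adjusted p = 0.0216). scpr-A stood at 11935, 6203 and 6031 normalised CPM in the ribosome IPs, against 829 in the control (log2 fold change 3.28 ± 0.57; adjusted p = 0.0324).

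For scpr-B the values were 7934, 3762 and 3425 normalised CPM in the ribosome IPs, against 149 in the control (log2 fold change 5.08 ± 0.70; adjusted p = 0.0225). In each scpr gene ribosome IP 1 was the highest library and the control the lowest. The 3 genes are close copies on chromosome arm 3R, and how their shared reads were divided is not given in the sources used here, so their separate values are uncertain. Together they took 3.52, 2.28 and 2.34% of the counts of the ribosome IPs and 0.240% of the control.

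Of the odorant-binding proteins, small secreted carriers of hydrophobic molecules, 26 of 51 were tested, 2 were higher and 1 lower. These were 7.69% and 3.85% of those tested, against 3.25% and 0.267% of all genes. Obp99a stood at 20003, 5609.7 and 7625 normalised CPM in the ribosome IPs, against 400.1 in the control, and at 1.87 CPM in sorted cells (log2 fold change 4.79 ± 0.92; adjusted p = 0.0417). Obp44a stood at 14231, 4851 and 6127 normalised CPM in the ribosome IPs, against 409 in the control (log2 fold change 4.36 ± 0.79; adjusted p = 0.0358). Both were far higher in ribosome IP 1 than in the other 2, and each library still exceeded the control.

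The small coding gene CG43249, chosen after its values were seen, shared that order, at 5409, 1806 and 2079 normalised CPM in the ribosome IPs, against 50.6 in the control (log2 fold change 5.94 ± 0.89; adjusted p = 0.0248). Ribosome IP 1 was thus the highest of the 3 in these 6 genes and the lowest in CG17575, lectin-46Ca and Acp32CD. Not every gene near 0 in sorted cells shared the order. In sad (316, 546 and 1094) and 7B2 (19.4, 41.2 and 28.7), both described below, ribosome IP 1 was the lowest. The calls of the 3 scpr genes, Obp99a and Obp44a were lost in the fit of 13 libraries (adjusted p = 0.0693 to 0.290), and those of all 6 genes without ribosome IP 3 (adjusted p = 0.0510 to 0.0704).

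Glutathione S-transferases, which conjugate glutathione to reactive compounds, were gathered into a list after values were seen. Of 35 members, all tested, 7 were higher (GstE7, GstD2, GstD3, GstE2, GstE6, GstD9 and GstS1) and 0 lower, against 3.25% and 0.267% of all genes. In 28 all 3 ribosome IPs lay above the control and in 4 below it, against 37.7 and 31.0% of all genes. The median log2 fold change was 2.12, or 1.30 with the 6 members that had 0 control counts set at their bound.

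GstE7 had close values in the 3 ribosome IPs, at 289, 233 and 241 normalised CPM in the ribosome IPs, against 5.30 in the control (log2 fold change 5.58 ± 0.39, SE; adjusted p = 0.00967). GstD3 stood at 1475, 855 and 1259.9 normalised CPM in the ribosome IPs, against 44.8 in the control (log2 fold change 4.74 ± 0.48; adjusted p = 0.0216). GstD2 and GstE2 varied more, with ribosome IP 2 the lowest of the 3 in each. GstD2 stood at 365, 116 and 269 normalised CPM in the ribosome IPs, against 8.61 in the control and GstE2 at 77.6, 23.1 and 57.8 normalised CPM in the ribosome IPs, against 2.65 in the control.

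Sorted wild-type cells held GstE7 at 54.1 CPM, GstD3 at 4.17 CPM, GstD2 at 1.26 CPM and no count of GstE2. The list took 1.60, 0.963 and 1.34% of the counts of the ribosome IPs and 0.245% of the control. The calls of GstD2 and GstE2 were lost in the fit of 13 libraries (adjusted p = 0.220 to 0.267), that of GstE2 with library totals (adjusted p = 0.0558), and those of all 4 without ribosome IP 3 (adjusted p = 0.0510 to 0.107).

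Of the genes higher, 26 had 0 counts in the control and 22 had 1 to 3. For the first kind only a bound on the fold can be given, from 3 counts in the control library, which are 0.662 normalised CPM. CG32557, on X from 17852958 to 17856129 (dm6) and named Mco4 in the current annotation, had 486, 480.0 and 530.2 in the ribosome IPs and 0 counts in the control. It was at least 753-fold higher, nearly equal in the 3 ribosome IPs, and had the smallest adjusted p of all genes (adjusted p = 0.00145). Its mean in sorted wild-type cells was 0.396 CPM, and it alone kept its call without ribosome IP 3 (adjusted p = 0.0100).

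The other genes named with 0 counts in the control were far scarcer. 7B2, a chaperone of a prohormone convertase, had 19.4, 41.2 and 28.7 in the ribosome IPs and was at least 45.0-fold higher. CG3349 had 15.4, 38.4 and 32.6 and was at least 43.5-fold higher, and sorted cells held it at 210.5 CPM. C1GalTA, a galactosyltransferase that builds core O-glycans, had 18.8, 8.99 and 20.2 and was at least 24.1-fold higher.

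TwdlD, of the Tweedle cuticle protein family, was at least 29.5-fold higher, the receptor mthl8 at least 17.5-fold and the gustatory receptor Gr93c at least 14.7-fold. The non-coding CR45633 was at least 50.6-fold and CR44537 at least 35.8-fold higher. CG3349 and CG32147 (14.4 CPM) were the only ones above 1 CPM in sorted cells among the 15 called genes named for the largest increases. With library totals 5 of these 15 lost their call (CR45633, CR44727, CG34045, CG32147 and CG42867; adjusted p = 0.0555 to 0.0596), and in the fit of 13 libraries 8 did (adjusted p = 0.0649 to 0.129).

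Among genes with few control counts, sad stood out by its level. It encodes a cytochrome P450 that hydroxylates ecdysteroids in the synthesis of ecdysone, and lies on 3R from 11877235 to 11879754 (dm6). It stood at 316, 546 and 1094 normalised CPM in the ribosome IPs, against 1.77 in the control, the control value being 8 counts. The ribosome IPs differed among themselves, with ribosome IP 3 the highest, and all lay far above the control (log2 fold change 8.52 ± 1.07, SE; adjusted p = 0.0216). Sorted wild-type cells held it at 0.475 CPM.

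No other of 11 tested ecdysone genes (synthesis enzymes, receptor and early targets) passed, so 9.09% were higher, against 3.25% of all genes. The median log2 fold change of the 11 was 0.82. The next genes of this kind were chosen after their values were seen. tok, a metalloprotease of the tolloid family, stood at 42.7, 41.4 and 50.4 normalised CPM in the ribosome IPs, against 0.662 in the control, or 3 counts (ratio 67.7, counting interval 23.2 to 328). Hn, the phenylalanine hydroxylase, stood at 17.5, 36.1 and 42.6 normalised CPM in the ribosome IPs, against 0.221 in the control, a single count (ratio 145, counting interval 26.1 to 5735).

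The insulin-like peptide gene Ilp7 stood at 7.96, 5.62 and 9.34 normalised CPM in the ribosome IPs, against 0.221 in the control, again a single count (ratio 34.6, counting interval 6.21 to 1367). All 3 ribosome IPs lay above the control for tok, Hn and Ilp7, and all 3 genes passed (adjusted p = 0.0216, 0.0237 and 0.0417). These intervals are at 95% and cover counting error of the control alone. Ilp7 lost its call with library totals (adjusted p = 0.0587), in the fit of 13 libraries (adjusted p = 0.194) and with the sorted wild-type libraries added (adjusted p = 0.0531), and all 4 genes lost theirs without ribosome IP 3 (adjusted p = 0.0510 to 0.119).

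The next 4 genes, all higher, were likewise chosen after their values were seen, and other actin and tubulin genes were not counted. Act5C, a cytoplasmic actin, stood at 1059, 1155 and 1388 normalised CPM in the ribosome IPs, against 268 in the control (log2 fold change 2.16 ± 0.33; adjusted p = 0.0248). The tubulin gene alphaTub85E stood at 476, 646 and 764 normalised CPM in the ribosome IPs, against 89.6 in the control (adjusted p = 0.0225), and betaTub60D at 279, 299 and 424 normalised CPM in the ribosome IPs, against 78.6 in the control (adjusted p = 0.0324). Sorted wild-type cells held alphaTub85E at 0.139 CPM, betaTub60D at 5.38 CPM and Act5C at 365 CPM. Dbi, an acyl-CoA binding protein gene, stood at 2921, 3229 and 1846 normalised CPM in the ribosome IPs, against 257 in the control (log2 fold change 3.38 ± 0.46; adjusted p = 0.0225). In the fit of 13 libraries alphaTub85E, betaTub60D and Dbi lost their calls (adjusted p = 0.0674, 0.111 and 0.179), and betaTub60D did with library totals (adjusted p = 0.0591).

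Fewer genes were lower, and genes of the ejaculatory duct and bulb were prominent among those gathered in a list. Of 6 members, all tested, 2 were lower and 0 higher, against 0.267% and 3.25% of all genes, and the median log2 fold change was -2.35. Est-6, an esterase that the duct secretes and males transfer to females, stood at 190.0, 279 and 269.7 normalised CPM in the ribosome IPs, against 1112 in the control (log2 fold change -2.17 ± 0.28; adjusted p = 0.0216). Gld, glucose dehydrogenase, stood at 26.1, 24.5 and 15.1 normalised CPM in the ribosome IPs, against 139 in the control (log2 fold change -2.67 ± 0.33; adjusted p = 0.0216).

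The ribosome IPs lay close together and far below the control in both genes. The bulb protein gene Peb stood at 46.6, 440.4 and 148 normalised CPM in the ribosome IPs, against 1946 in the control, below the control throughout but too variable to pass (log2 fold change -3.20 ± 0.88; adjusted p = 0.102), and PebII at 25.7, 317 and 109.9 normalised CPM in the ribosome IPs, against 873 in the control (adjusted p = 0.200). Dup99B, the duct peptide related to Sex Peptide, stood at 1326, 1163 and 826 normalised CPM in the ribosome IPs, against 1549 in the control (adjusted p = 0.444). PebIII lay on the other side, at 762, 501 and 616 normalised CPM in the ribosome IPs, against 296 in the control (adjusted p = 0.130).

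The list took 0.208, 0.254 and 0.199% of the counts of the ribosome IPs and 0.724% of the control, and 0.000433% of wild-type sorted cells. Est-6 and Gld lost their calls in the fit of 13 libraries (adjusted p = 0.0826 to 0.167) and without ribosome IP 3 (adjusted p = 0.0558 to 0.0560). How much duct or bulb tissue went into each IP is not given in the sources used here, and its part in these values was not tested.

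Serpins, inhibitors of serine proteases, moved both ways. Spn77Bb stood at 371, 287 and 243 normalised CPM in the ribosome IPs, against 1389 in the control (log2 fold change -2.21 ± 0.28; adjusted p = 0.0216), and Spn77Bc at 309, 436 and 304 normalised CPM in the ribosome IPs, against 1467 in the control (log2 fold change -2.07 ± 0.28; adjusted p = 0.0225). Spn75F was higher, at 67.7, 77.6 and 88.1 normalised CPM in the ribosome IPs, against 4.64 in the control (log2 fold change 4.07 ± 0.39; adjusted p = 0.0216). These were the 3 called of 26 serpins tested, 3.85% higher and 7.69% lower, against 3.25% and 0.267% of all genes. The median of the 26 was -0.16. Spn75F lost its call in the fit of 13 libraries (adjusted p = 0.429) and in that with the sorted wild-type libraries added (adjusted p = 0.201).

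CG5162, a lipase-like gene, resembled Spn77Bb in level and size, at 188, 255 and 217 normalised CPM in the ribosome IPs, against 1057 in the control (log2 fold change -2.26 ± 0.25; adjusted p = 0.0216). Among genes called lower that averaged 5 CPM or more over the 4 libraries, CG42656 had the largest decrease, at 3.37, 1.76 and 1.38 normalised CPM in the ribosome IPs, against 35.3 in the control (log2 fold change -4.06 ± 0.51; adjusted p = 0.0216). CG18301 and CG14292 followed, with log2 fold changes of -3.15 ± 0.62 and -3.11 ± 0.54. Obp99b was also lower (log2 fold change -2.57 ± 0.41), as was vvl, a POU domain transcription factor gene (-2.23 ± 0.41).

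Of the genes named as lower so far, Gld stood at 1.53 CPM in sorted wild-type cells and the others under 1 CPM. The non-coding CR43458, chosen after its values were seen, had 0 counts in all 3 ribosome IPs and 41 in the control. It was at least 142-fold lower, from 3 counts over the 3 ribosome IPs (adjusted p = 0.0351, and 0.0852 in the fit of 13 libraries). CR43453, chosen likewise, stood at 0.102, 0 and 0 normalised CPM in the ribosome IPs, against 13.7 in the control (adjusted p = 0.0217). In the fit of 13 libraries, Spn77Bb kept its call and Spn77Bc, CG5162, Obp99b, vvl, CG42656, CG18301 and CG14292 lost theirs (adjusted p = 0.0791 to 0.222), and without ribosome IP 3 all 8 did (adjusted p = 0.0560 to 0.118).

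Markers of other cells were present on both sides. Main cells are the other epithelial cell type of the gland and make most of its seminal proteins. Of 19 tested main cell products 1 was lower (5.26%, against 0.267% of all genes) and 0 higher. A negative log2 fold change was found in 18, and the median was -0.58. The gene called was Acp29AB, a lectin that helps sperm storage, at 68.6, 77.3 and 63.8 normalised CPM in the ribosome IPs, against 179 in the control (log2 fold change -1.36 ± 0.24; adjusted p = 0.0352). Its call was lost in the fit of 13 libraries (adjusted p = 0.771) and in that with the sorted wild-type libraries added (adjusted p = 0.543). Sex Peptide itself, SP, stood at 3219, 2324 and 2046 normalised CPM in the ribosome IPs, against 3778 in the control (adjusted p = 0.384), with each ribosome IP below the control.

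Main cell products took 2.98, 2.42 and 1.93% of the counts of the ribosome IPs, 4.53% of the control and 0.0725% of wild-type sorted cells. Of 28 seminal fluid proteins named Sfp, 0 passed, against 0.267% of all genes lower. All 3 ribosome IPs lay below the control for 25 of them (31.0% of all genes). As lower, 15 had an unadjusted p under 0.05 (668 of all 12723 genes did), and the median was -0.84. The example with the highest level was Sfp26Ad, at 461, 659.7 and 578 normalised CPM in the ribosome IPs, against 1047 in the control (adjusted p = 0.143). Sfp33A3 stood at 469, 500.4 and 326 normalised CPM in the ribosome IPs, against 714 in the control (adjusted p = 0.241).

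Within the network of seminal proteins that work with Sex Peptide, the secondary cell members CG17575 and lectin-46Ca were higher while SP was not. In all, 2 of 9 members were called (22.2% higher, against 3.25% of all genes). The median of the 9 was -0.53, with 3 members above and 5 below the control in all 3 ribosome IPs.

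Testis and sperm genes took 2.68, 2.78 and 2.76% of the counts of the ribosome IPs, 4.62% of the control and 0.00102% of wild-type sorted cells. Of 42 tested, 0 passed, against 0.267% of all genes lower. All 3 ribosome IPs lay below the control for 28 of them (31.0% of all genes). As lower, 3 had an unadjusted p under 0.05 (668 of all 12723 genes did), and the median log2 fold change was -0.39. S-Lap1, a sperm aminopeptidase, stood at 4316, 3397 and 3431 normalised CPM in the ribosome IPs, against 4965 in the control (adjusted p = 0.474), and loopin-1 at 2303, 2487 and 2353 normalised CPM in the ribosome IPs, against 3293 in the control (adjusted p = 0.381). By these markers the libraries labelled as secondary cell IPs also held RNA of main cells, duct, bulb and testis, with the control holding larger shares of each. The part of these shares in the differences of other genes was not tested.

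Muscle genes lay near the middle of all genes, with 0 of 21 called and a median of -0.04. Of all genes, 3.25% were higher and 0.267% lower. Act87E stood at 201, 268 and 233 normalised CPM in the ribosome IPs, against 202 in the control and Mlc2 at 87.4, 158 and 123 normalised CPM in the ribosome IPs, against 144 in the control. For fat body 0 of 7 were called, for blood cells 0 of 10 and for trachea 0 of 6. Their medians were 1.23, -0.17 and 0.34. With members of 0 control counts set at their bound they were 0.80, -0.17 and -0.09. At an unadjusted p of 0.05, 2 fat body, 2 blood cell, 2 muscle and 0 tracheal genes were higher, and 0 of each were lower. Among all 12723 genes, 1897 were higher and 668 lower at that p.

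Of 16 tested nerve cell genes 1 was higher (6.25%, against 3.25% of all genes) and 0 lower. Their median was 0.68, or 0.56 with members of 0 control counts set at their bound. In 9 all 3 ribosome IPs lay above the control and in 4 below it. The 1 called was nSyb, the neuronal synaptobrevin, at 130.3, 84.2 and 90.4 normalised CPM in the ribosome IPs, against 5.74 in the control (log2 fold change 4.14 ± 0.45; adjusted p = 0.0216). The synaptic scaffold brp, chosen after its values were seen, stood at 6.73, 8.74 and 9.23 normalised CPM in the ribosome IPs, against 23.2 in the control (adjusted p = 0.0860), below the control throughout. Sorted secondary cells held nSyb at 25.1 CPM and brp at 0.200 CPM.

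**Figure D4:**
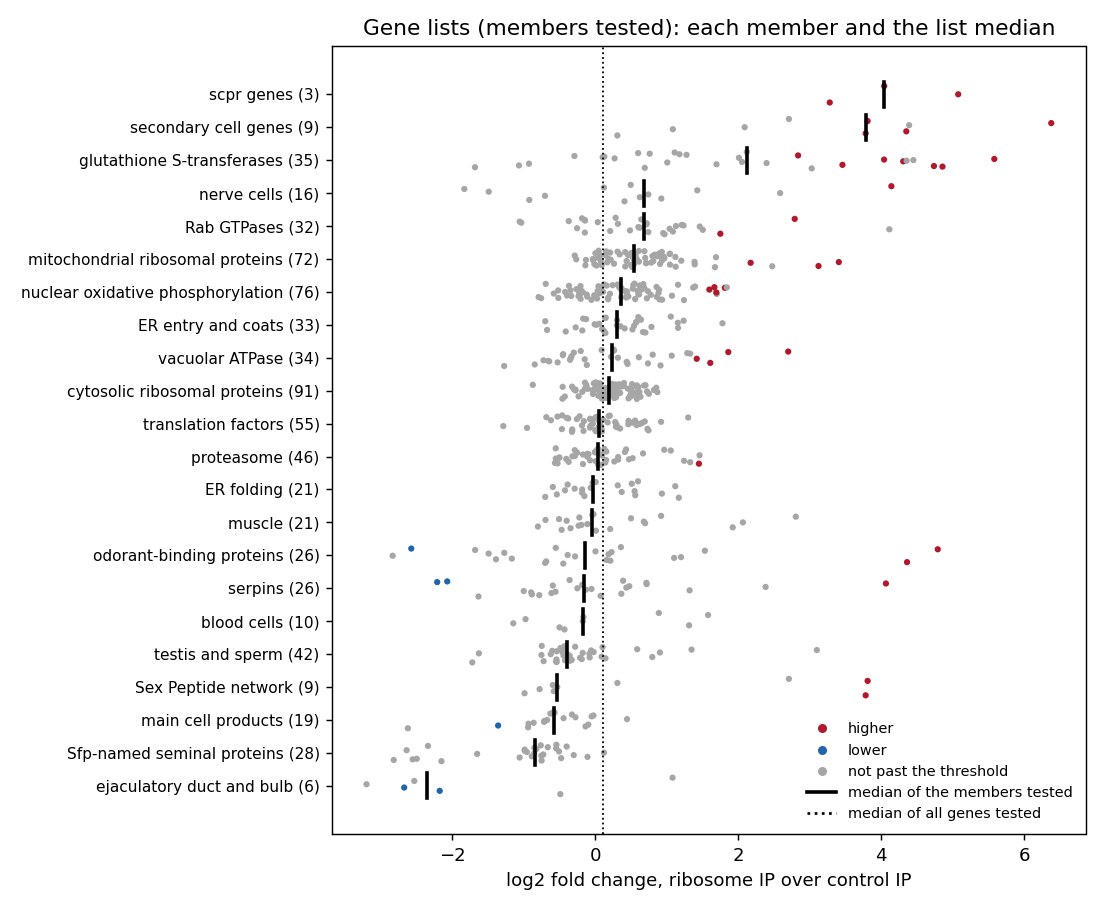
Log2 fold change, ribosome IP over control, of each member of 22 gene lists (members with 0 control counts are not drawn), with red points called higher, blue points called lower and grey points not past the threshold. Black bars are medians of the members tested, whose number is in parentheses, and the dotted line is the median of all genes (0.11). The scpr genes (median 4.04) lie at one end, followed by secondary cell genes (3.78), and ejaculatory duct and bulb genes (-2.35) lie at the other.

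Genes of the translation machinery lay near the median of all genes. Of 91 cytosolic ribosomal protein genes 0 were called, against 3.25% of all genes higher and 0.267% lower. As higher, 4 had an unadjusted p under 0.05, against 1897 of all 12723 genes. The median log2 fold change was 0.19 (-0.19 with library totals). RpL41 stood at 1162, 631 and 582 normalised CPM in the ribosome IPs, against 479 in the control and sta at 514, 549 and 564 normalised CPM in the ribosome IPs, against 539 in the control. Of 55 translation factors 0 were called, 3 were higher and 2 lower at an unadjusted p of 0.05, and the median was 0.05 (-0.33 with library totals).

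Nuclear genes for mitochondrial proteins had medians above that of all genes. Of 72 mitochondrial ribosomal protein genes 3 were higher and 0 lower, 4.17% against 3.25% of all genes. In 51 all 3 ribosome IPs lay above the control, and the median was 0.55 (0.15 with library totals). mRpL33 stood at 26.4, 18.6 and 18.6 normalised CPM in the ribosome IPs, against 1.99 in the control (log2 fold change 3.41 ± 0.52; adjusted p = 0.0257), and mRpL14 at 52.8, 27.8 and 29.6 normalised CPM in the ribosome IPs, against 4.20 in the control (adjusted p = 0.0364). mRpL3 differed least among them, at 27.1, 25.5 and 28.2 normalised CPM in the ribosome IPs, against 5.96 in the control (adjusted p = 0.0322).

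Of 76 nuclear genes of oxidative phosphorylation 4 were higher (5.26%, against 3.25% of all genes) and 0 lower. The median was 0.36, against 0.11 over all genes. With library totals it turned sign, to -0.04, against -0.27 over all genes. The 4 higher were CG9603, CG40002, CoVIIc and CG7630, small subunits of the respiratory chain named COX7A, ND-AGGG, COX7C and COX7B in the current annotation. CG9603 stood at 399.8, 541 and 614 normalised CPM in the ribosome IPs, against 147 in the control (log2 fold change 1.81 ± 0.35; adjusted p = 0.0417). With library totals 5 of these 7 mitochondrial genes lost their call (adjusted p = 0.0599 to 0.0798), in the fit of 13 libraries all but mRpL3 did (adjusted p = 0.121 to 0.575), and without ribosome IP 3 all did (adjusted p = 0.0673 to 0.119).

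Secondary cells carry large acidic vacuoles, and proton pumps and Rab GTPases of the vesicle system were examined for that reason. Of 34 subunits of the vacuolar ATPase 4 were higher (11.8%, against 3.25% of all genes) and 0 lower (0.267% of all genes). In 16 all 3 ribosome IPs lay above the control and in 13 below it, against 37.7 and 31.0% of all genes. The median was 0.24, against 0.11 over all genes. With library totals it turned sign, to -0.14, against -0.27 over all genes. VhaM9.7-c stood at 15.2, 22.9 and 22.2 normalised CPM in the ribosome IPs, against 3.09 in the control (log2 fold change 2.70 ± 0.50; adjusted p = 0.0380). VhaM9.7-b stood at 266, 227 and 304 normalised CPM in the ribosome IPs, against 73.1 in the control (adjusted p = 0.0299), and Vha14-1 and Vha36-1 had log2 fold changes of 1.61 ± 0.32 and 1.42 ± 0.29.

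Of 32 Rab genes 2 were higher (6.25%, against 3.25% of all genes) and 0 lower. All 3 ribosome IPs lay above the control in 23 (71.9%, against 37.7% of all genes), and the median was 0.68 (0.30 with library totals). Sorted wild-type cells held the 2 called, RabX4 and Rab10, at 1.28 and 28.7 CPM. RabX4 stood at 30.2, 27.3 and 38.9 normalised CPM in the ribosome IPs, against 4.64 in the control (log2 fold change 2.79 ± 0.43; adjusted p = 0.0257), and Rab10 at 30.8, 27.0 and 33.7 normalised CPM in the ribosome IPs, against 9.05 in the control (adjusted p = 0.0486). Of these 6 genes only RabX4 kept its call with library totals (adjusted p = 0.0558 to 0.0996 for the others), and none kept it in the fit of 13 libraries (adjusted p = 0.0535 to 0.311) or without ribosome IP 3 (adjusted p = 0.0704 to 0.145).

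Genes of the early secretory pathway were not called, where 3.25% of all genes were higher and 0.267% lower. At an unadjusted p of 0.05, 1897 of all 12723 genes were higher and 668 lower. Of 21 genes for folding in the endoplasmic reticulum 0 passed (3 higher at an unadjusted p of 0.05), with a median of -0.04, and of 33 for entry into it and for coat proteins 0 passed (6 higher at an unadjusted p of 0.05), with a median of 0.31. The chaperone gene Crc (calreticulin) stood at 1135, 1511 and 1641 normalised CPM in the ribosome IPs, against 748 in the control (adjusted p = 0.175), and all 3 ribosome IPs exceeded the control. Of 46 proteasome subunits 1 was higher, or 2.17% against 3.25% of all genes. It was Prosalpha4, at 117, 124 and 148 normalised CPM in the ribosome IPs, against 47.5 in the control (adjusted p = 0.0472; 0.0992 with library totals and 0.188 in the fit of 13 libraries).

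Stress and immune genes gave 1 call. Hsp23, a small heat shock protein gene abundant in sorted cells (1339.7 CPM), stood at 1713, 631 and 805 normalised CPM in the ribosome IPs, against 72.0 in the control (log2 fold change 3.87 ± 0.69; adjusted p = 0.0354). It was the only one called of 12 heat shock genes (8.33%, against 3.25% of all genes). The median of the 12 was 0.93, or 0.81 with members of 0 control counts set at their bound. In 9 all 3 ribosome IPs lay above the control and in 1 below it. Of 11 antimicrobial peptide genes 0 passed, against 3.25% of all genes higher and 0.267% lower. At an unadjusted p of 0.05, 0 were higher and 2 lower, against 1897 and 668 of all 12723 genes. The antifungal peptide gene Drs varied most, at 9.69, 61.4 and 6.02 normalised CPM in the ribosome IPs, against 15.2 in the control, with ribosome IP 2 above and the other 2 below the control.

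RNAs of the nucleus and nucleolus gave no call, against 3.25% of all genes higher and 0.267% lower. Of 10 nuclear or snoRNA host RNAs 0 passed, 1 was higher at an unadjusted p of 0.05, and the median was 0.26. roX1, of the dosage compensation complex, stood at 119, 91.6 and 112 normalised CPM in the ribosome IPs, against 84.1 in the control (adjusted p = 0.516). Hsromega, a non-coding RNA gene known for nuclear stress bodies, stood at 254, 126 and 112 normalised CPM in the ribosome IPs, against 28.7 in the control. It missed the threshold (log2 fold change 2.51 ± 0.56; adjusted p = 0.0609). Counts are per gene, so its transcripts, nuclear or not, were not separated.

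Of 16 tested small nuclear and nucleolar RNAs 0 passed, 1 was higher at an unadjusted p of 0.05, and the median was -0.65. The ribosomal RNA pseudogene CR41602 stood at 74108, 26228 and 19376 normalised CPM in the ribosome IPs, against 8358 in the control, with ribosome IP 1 the highest (adjusted p = 0.196). All 5 tested ribosomal RNA genes lay above the control in all 3 ribosome IPs and had an unadjusted p under 0.05, but 0 passed. Near-identical copies share their reads, and the libraries were primed on poly(A), so these values are uncertain.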

How the data were processed

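RNA of 3 ribosome IPs and 1 control IP was measured, beside 9 sorted-cell libraries used here for levels and in alternative fits. Gene-level read counts were deposited by the authors, made with STAR and HTSeq on dm6, per the submitters' processing notes. Tool versions and settings: not given in the sources used here. Of 16727 symbols, 12512 matched Ensembl release 115 directly, 4066 through a synonym and 149 not at all. Reads carried no molecular barcodes, so bounds from 3 counts and 95% Poisson intervals cover counting error alone.

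The 4 libraries were fitted with edgeR 4.0.16 in R 4.3.3 (TMM, default expression filter, quasi-likelihood F-test, Benjamini-Hochberg adjustment at 0.05, 2 residual degrees of freedom). The fit was also run on simulated counts with known changes, in which the control had the same spread as the ribosome IPs. That run could not check whether the lone control varies like them. Log2 fold changes are ribosome IP over control, and standard errors were derived from the F statistic. CPM are counts per 1000000; those of sorted cells are means of 3 wild-type libraries. Alternatives were DESeq2 1.42.0, RLE, upper-quartile or no factors, no filter or 5 CPM in 3 libraries, 7 libraries (with sorted wild type) or 13, a test against a log2 change of 1, and each ribosome IP left out. The ribosome IPs differed from each other by more than sampling noise.

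Members and lists were chosen with earlier results of these data known, including the secondary cell list, so list counts are descriptions without a test. Genes were named by rule (RpL10Ab, Bithorax genes, the 15 largest changes each way among called genes averaging 5 CPM or more whose 3 ribosome IPs lay on 1 side of the control, up to 4 called members of each list or else 2 by level, and the 10 most abundant in sorted cells). The text names some of these. All other genes were chosen after their values were seen, and not every one is marked so where it is described. Python 3.11.15, pandas 2.3.3, numpy 2.4.6, scipy 1.17.1 and matplotlib 3.10.9 prepared tables and figures.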

Additional observations from a re-analysis of the deposited data

How the results depend on the processing

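Against 414 genes higher and 34 lower, DESeq2 gave 975 and 151, a fit with the sorted wild-type libraries 791 and 57, a fit of all 13 libraries 213 and 4, library totals 221 and 114, no expression filter 553 and 57, and a test against a log2 change of 1 gave 52 and 2. Leaving out 1 ribosome IP gave 1 to 1433 higher and 0 to 481 lower. The lowest counts came without ribosome IP 3 and the highest without ribosome IP 1; the cause was not tested. With RLE or upper-quartile factors there were 396 and 40 or 330 and 49, and with at least 5 CPM in 3 libraries 511 and 49. No called gene changed sign under any of these where it was tested (400 and 25 were at 5 CPM). Of the genes named, 4 lost their call with RLE, 10 with upper-quartile factors, 9 with the sorted wild-type libraries added, 60 in the test against a log2 change of 1 and 1 without ribosome IP 2. No paired analysis was possible because the control is 1 library and shares at most 1 replicate number with the ribosome IPs. The control cannot be left out. Its 3.70 (in units of 1e6) counts limit precision most for genes of few control counts, such as tok, Hn and Ilp7.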

Other observations

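The non-coding CR40469, on X from 122493 to 122706 (dm6) and chosen after its values were seen, separated the ribosome IPs from each other. It stood at 226, 1.16 and 0.688 normalised CPM in the ribosome IPs, against 636 in the control. Wild-type sorted cells held it at 1129.5 CPM, and the difference from the control did not pass (adjusted p = 0.460). Drs, at 9.69, 61.4 and 6.02 in the ribosome IPs and 15.2 in the control, likewise had 1 ribosome IP far from the other 2. Manf, a secreted neurotrophic factor of the endoplasmic reticulum, stood at 388, 335 and 338 normalised CPM in the ribosome IPs, against 163 in the control, and did not pass (log2 fold change 1.12 ± 0.27; adjusted p = 0.0736).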
